A study of Homo sapiens with 6 samples.

Results

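NF-κB is a family of transcription factors that answer inflammatory cytokines, microbial products and stress. Here, 10 genes of this pathway were followed: the subunit genes NFKB1, NFKB2, RELA and RELB, the feedback inhibitors NFKBIA, NFKBIE and TNFAIP3, and the target genes BIRC3, TNFAIP2 and ICAM1. They were taken by symbol, and were 10 of the 58302 Ensembl genes counted. The libraries came from MDA-MB-231, a human breast cancer cell line of mesenchymal and basal-like type, in which a control shRNA or Smyca shRNA #1 was expressed. Smyca is a nuclear lncRNA, and the shRNAs that target it were carried by the pLKO.1 vector. Each group had 3 libraries, described as biological repeats, and no cytokine treatment is given for them. The comparison asks how the transcriptome differs when Smyca is depleted. It rests on 1 shRNA in 1 cell line, and p-values measure the spread between these libraries only.

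In resting cells, NF-κB dimers are held in the cytoplasm by inhibitors of the IκB family. A stimulus activates the IKK kinases, the IκB proteins are phosphorylated and destroyed, and the dimers enter the nucleus. Among the genes they switch on are those of their own inhibitors, so the signal ends itself, and those of some subunits. A slower branch runs through the kinase NIK and the processing of the NFKB2 precursor. In basal-like breast cancer cells the pathway is known for chemokine and cytokine expression and for survival signals.

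Feedback of this kind runs through NF-κB sites, so the reference sequence around start sites of the 10 genes was searched for the 10-base NF-κB consensus on both strands. RefSeq promoter windows (GRCh38.p14) of 300 bases, with 250 bases before and 50 after a start site, were found for 8 of the 10 genes, and RELB and NFKBIE had none in the table. The consensus occurred in 5 of the 8 genes (NFKB1, NFKB2, NFKBIA, TNFAIP3 and BIRC3) and in 6 of their 12 windows, since some genes have several start sites. Of all 35116 windows of this length, 5.91% held it. RELA, TNFAIP2 and ICAM1 had no match in these windows, which says only that these letters are not there. The matches of the genes described below are shown with flanking bases, 30 in all, on the strand of the gene. Capitals mark the match. In the NFKB1 and NFKB2 lines it reads as the consensus on the printed strand. In the NFKBIA, TNFAIP3 and BIRC3 lines the consensus reads on the strand opposite to the printed one. The distance is that of the first printed capital from the start site of its window.
NFKB1, chr4:102501300-102501329, plus strand, 49 bases upstream: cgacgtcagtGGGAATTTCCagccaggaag
NFKB2, chr10:102394461-102394490, plus strand, 107 bases upstream: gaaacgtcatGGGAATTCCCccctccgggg
NFKB2, chr10:102394490-102394519, plus strand, 78 bases upstream: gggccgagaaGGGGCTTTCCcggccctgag
NFKBIA, chr14:35404811-35404840, minus strand, 81 bases upstream: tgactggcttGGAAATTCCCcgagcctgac
TNFAIP3, chr6:137867182-137867211, plus strand, 67 bases upstream: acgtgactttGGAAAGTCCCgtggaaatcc
TNFAIP3, chr6:137867194-137867223, plus strand, 55 bases upstream: aaagtcccgtGGAAATCCCCgggcctacaa
BIRC3, chr11:102317275-102317304, plus strand, 199 bases upstream: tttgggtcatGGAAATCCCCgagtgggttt
BIRC3, chr11:102317339-102317368, plus strand, 135 bases upstream: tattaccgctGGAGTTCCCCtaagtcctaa
In the first NFKB2 line the consensus reads on both strands, and a second match overlaps it 1 base further downstream. Another NFKB2 window, at a different start site, held 2 more matches. The NFKB2 window at 102393860 to 102394159, which covers the annotated start of the gene, held 0. The NFKB2 lines shown thus belong to a start site inside the annotated gene.

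Total counts lay between 14999307 and 16501085 per library. Counts were scaled to the library size by the TMM method and are given as normalized CPM, the read count brought to a common library size, and genes were compared with edgeR's quasi-likelihood test. Smyca was followed through its host gene MIR23AHG (ENSG00000267519), whose annotation also holds 3 miRNA precursors and shares 8375 exon bases with the span of the protein-coding gene ZSWIM4 on the other strand, so that reads from Smyca, the rest of the host transcript and ZSWIM4 cannot be told apart. MIR23AHG was at 19.5 to 25.0 normalized CPM in the control and 5.61 to 10.5 in the knockdown, a log2 fold change of 1.53 (SE 0.26, adjusted p = 0.111). VIM, CD44, AXL, CAV1 and LGALS1, markers of mesenchymal lines, summed to 540 to 1268 normalized CPM in the control and 355 to 545 in the knockdown, with LGALS1 alone at up to 774. Of 4 luminal markers, 3 had at most 3 counts, and the list summed to 2.46 to 3.71 in the control and 1.45 to 3.86 in the knockdown, with GATA3 at up to 3.86. Of the 11 markers of leukocytes, endothelium and fibroblasts, PTPRC was at 0 counts in each library, the fibroblast markers had at most 3 counts, and 3 passed the filter, each with a positive log2 fold change. The leukocyte markers summed to 1.72 to 2.24 normalized CPM in the control and 0.762 to 1.85 in the knockdown, with CD14 at up to 1.601. The endothelial markers summed to 3.97 to 9.503 and 3.05 to 5.88, with VWF at up to 5.37.

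The control libraries differed among themselves, which bears on several of the 10 genes. Control replicate 3 had 4.99% of its counts on mitochondrial genes, against 1.78% to 2.72% in the other 5 libraries. The summed level of 10 hypoxia genes was 4916, 2622 and 1508 normalized CPM in control replicates 1, 2 and 3, and 1453 to 1944 in the knockdown. For 9 immediate-early genes, which respond fast to serum and stress, the sums were 1788, 1455 and 3011 in the control replicates and 462 to 674 in the knockdown. In control replicate 2 the deposited FPKM column did not follow the deposited counts, whereas it did in the other 5 libraries. The reads behind that column were closer to control replicate 3 (r = 0.997 across 11834 genes, which are not independent) than to the counts of control replicate 2 (r = 0.947), the knockdown libraries (r = 0.957 to 0.960) or control replicate 1 (r = 0.931). The counts were used, and values with the reads of the FPKM column or without a library are given beside the genes they move most. The part of these library differences in the results below was not tested.

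All 10 genes had enough counts to be tested, from 38 counts at the lowest (BIRC3 in a knockdown library) to 2632 at the highest (RELA in a control library). A gene was called when the ratio of control to Smyca knockdown was at least 1.5 or at most 0.66 with an adjusted p under 0.05. With edgeR's quasi-likelihood test, 0 of the 10 genes were called, where 0.0265% of the 15075 genes tested were called. The ratio criterion alone was met by 3 of the 10 (TNFAIP3, NFKB1 and BIRC3), against 21.2% of all genes, and an unadjusted p under 0.05 by the same 3, against 19.2%. Of these, NFKB1 missed the ratio without control replicate 1, with library totals alone and with the FPKM reads of control replicate 2 (log2 fold changes of -0.50, -0.59 and -0.57), and BIRC3 missed it without knockdown replicate 2 (0.56). DESeq2's Wald test called 2 of the 10, NFKB1 and TNFAIP3, where it called 5.55% of all genes. With edgeR and no filter on low counts, 1 of the 10 was called (TNFAIP3), where 3.01% of all genes were, and without control replicate 3, 2 were called (NFKB1 and NFKB2), where 10.5% of all genes were. A minimum of 10 counts in every library and the FPKM reads of control replicate 2 each left 0 of the 10 called, with 0.037% and 0.0658% of all genes. The groups did not overlap in 4 of the 10, with TNFAIP3 and RELA higher and NFKB1 and RELB lower in the control, against 24.8% of all genes. The median log2 fold change, control over knockdown, was 0.24 over the 10 genes and 0.036 over all genes tested. In bulk RNA, fewer cells that express a gene and less RNA per cell cannot be told apart.

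**Figure D1:**
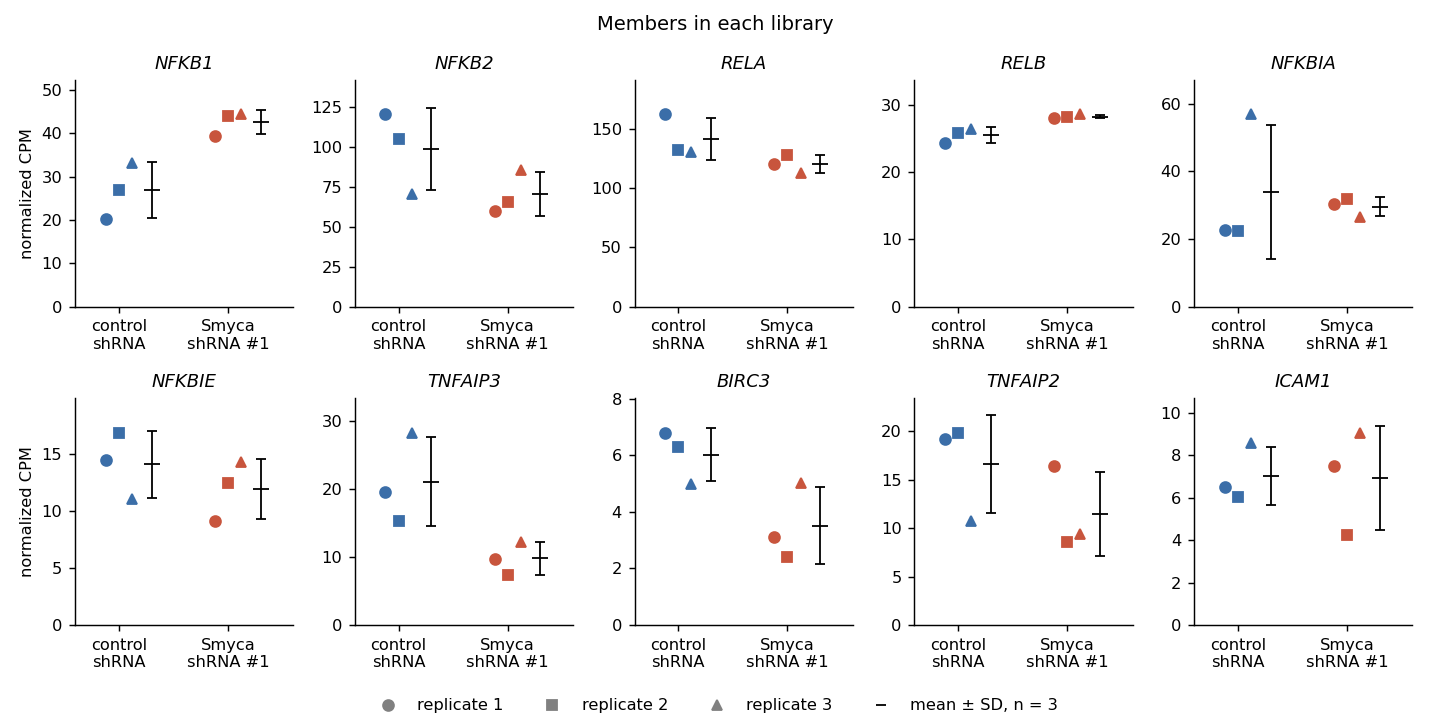
Normalized CPM (y axis, from 0) of each of the 10 genes in the 3 control shRNA and the 3 Smyca shRNA #1 libraries, with the replicate number as the symbol and the mean ± SD (n = 3) as a bar. NFKB1 lies lower and TNFAIP3 higher in all 3 control libraries, and NFKBIA stands out in control replicate 3 alone, at 56.9.

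Levels of different genes were compared per kilobase, as normalized CPM divided by the gene length behind the authors' FPKM values. RELA, which encodes the main transactivating subunit, was highest with a median of 113 normalized CPM per kilobase over the 6 libraries (98.9 to 142). NFKB2, the gene of the other branch's precursor, followed with 49.5 (37.9 to 76.2), and RELA exceeded it in each of the 6 libraries. NFKBIA was at 30.3 (23.7 to 60.6), NFKB1 at 21.1 (11.8 to 25.8) and RELB at 19.6 (17.5 to 20.6). NFKB1 exceeded RELB in 4 of 6 libraries, namely each knockdown library and control replicate 3. NFKBIE and TNFAIP2 shared a median of 8.39, with each ahead in 3 libraries. TNFAIP3 was at 6.26 (3.33 to 12.8) and ICAM1 at 5.58 (3.39 to 7.22). Their order changed with the group, as TNFAIP3 exceeded ICAM1 in each control library and lay below it in each knockdown library. BIRC3, at 2.16 (1.04 to 2.93), was lowest in each library. RELA had a median 52.5 times that of BIRC3 on this scale. With the union of all GENCODE exons as the length, NFKB1 moved from rank 4 to rank 7, because its annotated exons add up to 15679 bases against the 1721 bases behind the authors' FPKM. RELA, NFKB2, TNFAIP3, ICAM1 and BIRC3 kept their ranks.

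The subunit genes went in different directions. NFKB1 (ENSG00000109320; GRCh38 chromosome 4, 102501330 to 102617302, plus strand) encodes the precursor of a DNA-binding subunit that lacks a transactivation domain. Its level was 20.2, 27.0 and 33.2 normalized CPM in control replicates 1, 2 and 3 and 39.3, 44.03 and 44.4 in the knockdown. Each control library was below each knockdown library. The mean was 26.8 ± 6.47 (SD, n = 3) in the control and 42.6 ± 2.83 (SD, n = 3) in the knockdown. The log2 fold change was -0.67 (SE 0.20, adjusted p = 0.142, edgeR). The exact two-sided permutation test of the means gave p = 0.1, the smallest that 3 against 3 libraries allow. Without control replicate 3 the difference was called (log2 fold change -0.86, adjusted p = 0.0237), and DESeq2's Wald test gave an adjusted p of 0.0498.

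NFKB2 (ENSG00000077150; chromosome 10, 102394110 to 102402524, plus strand) was at 120, 105 and 70.6 normalized CPM in the control and at 59.8, 65.6 and 85.6 in the knockdown. Control replicate 3 lay below the highest knockdown library, so the groups overlapped. The log2 fold change was 0.49 (SE 0.23, adjusted p = 0.282, edgeR). Without control replicate 3 it was 0.67 and was called (adjusted p = 0.0487), and it was 0.32 both without control replicate 1 and with the FPKM reads of control replicate 2. Within the control, NFKB2 was highest and NFKB1 lowest in replicate 1, the library with the highest sum of hypoxia genes.

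RELA (ENSG00000173039; chromosome 11, 65653599 to 65663090, minus strand) was at 162, 132 and 130 normalized CPM in the control and at 120, 128 and 113 in the knockdown. The groups did not overlap, but the nearest libraries were only 130 and 128 apart, and the log2 fold change was 0.23 (SE 0.15, adjusted p = 0.422, edgeR), or 0.13 without control replicate 1. RELB (ENSG00000104856; chromosome 19, 45001461 to 45038192, plus strand), the partner of the processed NFKB2 product, was the steadiest of the 10 genes. It was at 24.3, 25.8 and 26.4 in the control and at 28.1, 28.1 and 28.6 in the knockdown, which did not overlap either. Its log2 fold change of -0.15 had an SE of 0.14 (adjusted p = 0.596, edgeR).

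**Figure D2:**
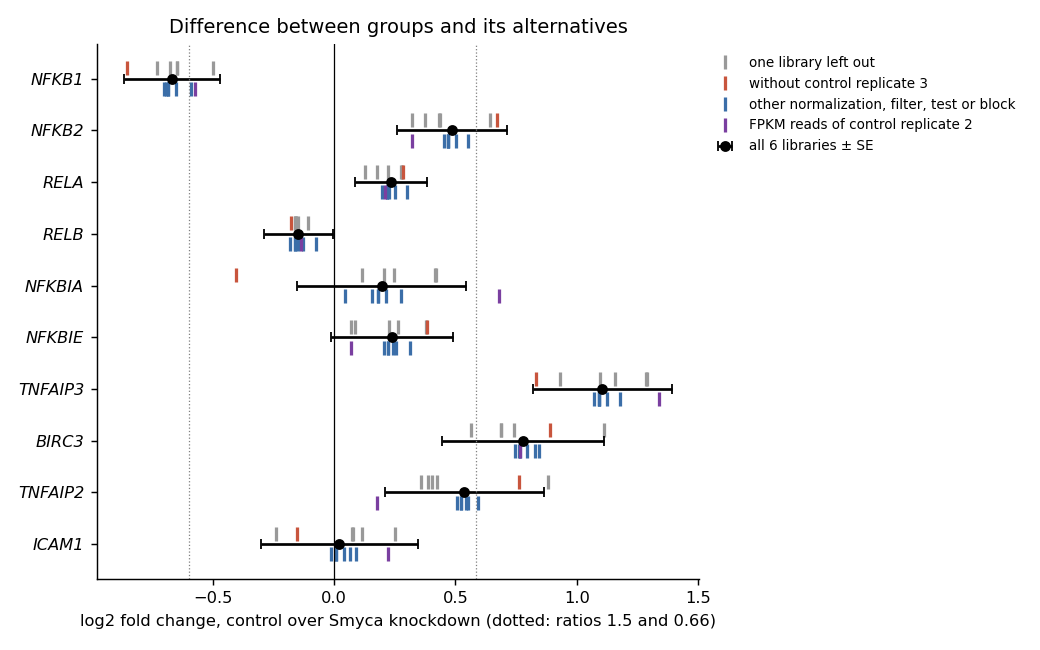
Log2 fold change of each gene, control over Smyca knockdown (x axis), from all 6 libraries (black point, bar = SE) and from the alternative fits (ticks). Dotted lines mark the ratios 1.5 and 0.66. NFKB1 stays left of 0 and TNFAIP3 right of 0 in each fit, whereas NFKBIA runs from -0.41 without control replicate 3 to 0.68 with the FPKM reads of control replicate 2.

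Ratios of counts within a library do not depend on how libraries are scaled to each other. The following pairs were chosen after the levels had been seen, so they are given as a description without a test. Each pair here has NFKB1 as the denominator, which was itself lower in each control library, so they are not independent of that difference. RELA was also higher in each control library, so its ratio to NFKB1 had to separate the groups. The NFKB2 to NFKB1 ratio of counts was 5.94, 3.88 and 2.13 in control replicates 1, 2 and 3 and 1.52, 1.49 and 1.93 in the knockdown. The control libraries thus spanned a wide range that ended just above the highest knockdown library. The RELA to NFKB1 ratio was 8.02, 4.89 and 3.93 in the control and 3.06, 2.92 and 2.54 in the knockdown. The RELB to NFKB1 ratio, at 0.797 to 1.20 and 0.639 to 0.714, also separated the groups. With the reads of the FPKM column in control replicate 2, these ratios became 2.30, 3.92 and 0.825 in that library, above each knockdown library. Those reads were close to control replicate 3, so this is not a check with an independent library.

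**Figure D3:**
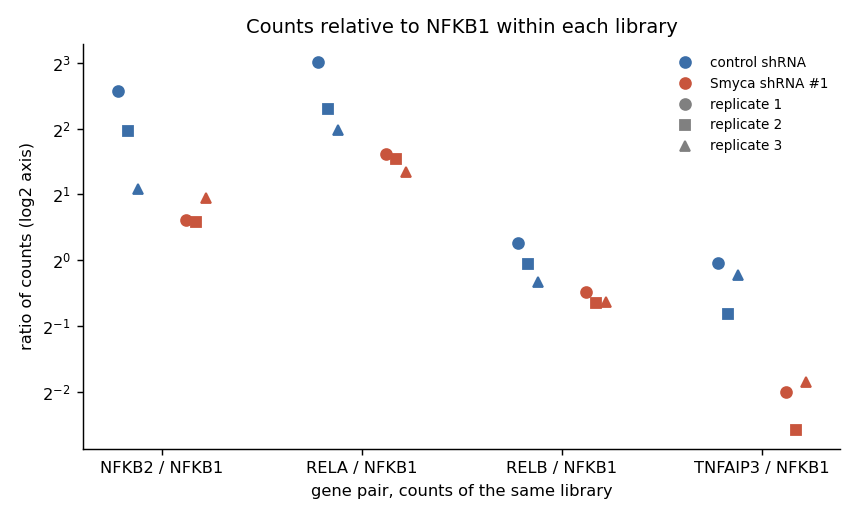
Ratio of the counts of NFKB2, RELA, RELB and TNFAIP3 to those of NFKB1 in the same library (log2 y axis), for control shRNA (blue) and Smyca shRNA #1 (red), with replicates as symbols. All 3 control libraries lie above all 3 knockdown libraries in each pair, and control replicate 3 comes closest to them for NFKB2 (2.13 against 1.93). The pairs share NFKB1, which was itself lower in each control library, so their separation is not independent.

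Of the feedback inhibitors, TNFAIP3 had the largest difference of the 10 genes and the other 2 genes overlapped between the groups. TNFAIP3 (ENSG00000118503; chromosome 6, 137867214 to 137883314, plus strand) encodes A20, a ubiquitin-editing enzyme that shuts off signalling upstream of IKK. It was at 19.6, 15.4 and 28.3 normalized CPM in the control and at 9.78, 7.35 and 12.3 in the knockdown. Each control library was above each knockdown library, and the highest was control replicate 3. The mean was 21.1 ± 6.59 (SD, n = 3) in the control and 9.80 ± 2.47 (SD, n = 3) in the knockdown, 2.15-fold apart, with a log2 fold change of 1.11 (SE 0.29). The adjusted p was 0.126 from edgeR's quasi-likelihood test and 0.0133 from DESeq2's Wald test, and the exact permutation test gave p = 0.1, the smallest possible. The log2 fold change lay between 0.83 and 1.29 with each library left out in turn, lowest without control replicate 3, and was 1.34 with the FPKM reads of control replicate 2. The TNFAIP3 to NFKB1 ratio of counts, again a description, was 0.970, 0.571 and 0.853 in the control. In the knockdown it was 0.249, 0.167 and 0.277. The groups had to lie apart, since TNFAIP3 was higher and NFKB1 lower in each control library than in each knockdown library. The lncRNA WAKMAR2, which overlaps the 5′ end of TNFAIP3 on the other strand, had at most 13 counts in a library.

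NFKBIA (ENSG00000100906; chromosome 14, 35401079 to 35404749, minus strand) encodes IκBα, the classical inhibitor that NF-κB itself induces. It was at 22.6, 22.2 and 56.9 normalized CPM in the control and at 30.3, 31.9 and 26.5 in the knockdown. Control replicates 1 and 2 lay below each knockdown library and control replicate 3 above all of them. Over the 6 libraries, the log2 fold change was 0.20 (SE 0.35, adjusted p = 0.787, edgeR). Without control replicate 3 the sign turned, to -0.41 (SE 0.16, adjusted p = 0.137), and with the FPKM reads of control replicate 2 it was 0.68 (adjusted p = 0.315). Control replicate 3 was also the library with the highest sum of immediate-early genes, 3011 normalized CPM, and the highest TNFAIP3.

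The TNFAIP3 to NFKBIA ratio of counts was 0.866, 0.693 and 0.498 in the control and 0.322, 0.231 and 0.463 in the knockdown, which did not overlap. With the FPKM reads of control replicate 2 the ratio in that library was 0.426, and the groups then overlapped. NFKBIE (ENSG00000146232; chromosome 6, 44258166 to 44265788, minus strand), which encodes IκBε, was at 14.4, 16.9 and 11.01 normalized CPM in the control and at 9.14, 12.4 and 14.3 in the knockdown. The groups overlapped, and the log2 fold change was 0.24 (SE 0.25, adjusted p = 0.628, edgeR). It was 0.069 without knockdown replicate 1, 0.087 without control replicate 2 and 0.072 with the FPKM reads of control replicate 2, and 0.38 without control replicate 3 or without knockdown replicate 3.

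The target genes had 38 to 322 counts per library. BIRC3 (ENSG00000023445; chromosome 11, 102317484 to 102339403, plus strand) encodes an inhibitor of apoptosis that is also a ubiquitin ligase of the TNF receptor complex. It was at 6.79, 6.28 and 4.99 normalized CPM in the control and at 3.11, 2.41 and 5.02 in the knockdown. Only knockdown replicate 3 reached the range of the control, at 5.02 against 4.99 in control replicate 3. The log2 fold change was 0.78 (SE 0.33, adjusted p = 0.251, edgeR) and 1.11 without that library (adjusted p = 0.156), and 0.56 without knockdown replicate 2 (adjusted p = 0.58). A lncRNA on the other strand (ENSG00000288528) covers 4161 of the 7484 exon bases of BIRC3 in GENCODE.

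TNFAIP2 (ENSG00000185215; chromosome 14, 103121476 to 103137439, plus strand), a cytokine-induced gene linked to membrane tubes between cells, was at 19.2, 19.8 and 10.8 in the control and at 16.4, 8.55 and 9.38 in the knockdown. One library of each group lay inside the range of the other, and the log2 fold change was 0.54 (SE 0.33, adjusted p = 0.403, edgeR). It was 0.88 without knockdown replicate 1 (adjusted p = 0.264) and 0.18 with the FPKM reads of control replicate 2 (adjusted p = 0.807). ICAM1 (ENSG00000090339; chromosome 19, 10271093 to 10286615, plus strand), the adhesion receptor for leukocyte integrins, was at 6.48, 6.03 and 8.58 in the control and at 7.49, 4.24 and 9.05 in the knockdown. Its means of 7.03 ± 1.36 and 6.93 ± 2.45 (SD, n = 3 each) differed by far less than their spread, with a log2 fold change of 0.021 (SE 0.32, adjusted p = 0.977, edgeR). It ran from -0.24 without knockdown replicate 2 to 0.25 without knockdown replicate 3, and was 0.22 with the FPKM reads of control replicate 2.

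The 10 genes did not share one profile over the libraries. Relative to the gene's own mean over the 6 libraries, as log2(normalized CPM + 1), control replicate 3 was highest for NFKBIA (0.90) and TNFAIP3 (0.96). Control replicate 1 was highest for NFKB2 (0.55), RELA (0.32) and BIRC3 (0.49) and lowest for NFKB1 (-0.70) and RELB (-0.14). Knockdown replicate 2 was lowest for TNFAIP3 (-0.85), BIRC3 (-0.70), TNFAIP2 (-0.58) and ICAM1 (-0.57). The mean over the 10 genes ran from -0.25 in knockdown replicate 2 to 0.15 in control replicate 3. This range was narrower than that of each single gene but RELB, which averaging genes of unlike profile brings about by itself. Among 9532 other genes with a mean of at least 10 normalized CPM, the profiles nearest to this mean over the 6 libraries were those of CCDC28A, EBLN3P, WASHC4, WEE1 and ZFAND5, with root mean square differences of 0.020 to 0.044.

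**Figure D4:**
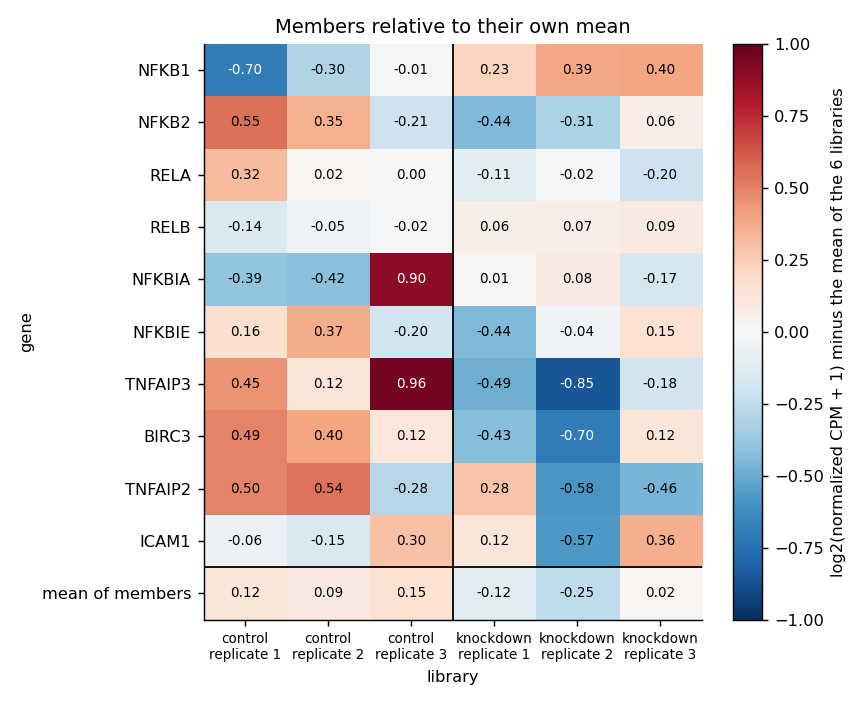
Log2(normalized CPM + 1) of each gene in each library minus that gene's mean over the 6 libraries, printed in the cell and shown as colour from -1 (blue) to 1 (red), with the mean over the 10 genes in the last row. NFKBIA (0.90) and TNFAIP3 (0.96) are highest in control replicate 3, and NFKB1 (-0.70) is lowest in control replicate 1.

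Around these 10 genes, 83 further genes of the pathway were listed by role, of which 82 were matched to an identifier (SOD2 was not) and 59 had enough counts. With edgeR, 0 of the 59 were called in either direction. An unadjusted p under 0.05 was reached by 16 that were higher in the control (10.4% of all genes tested) and by 5 that were lower (8.74% of all genes tested). DESeq2 called 9 of the 59, where it called 5.55% of all genes. Their median log2 fold change was 0.21, with 42 higher and 17 lower in the control, and 37 to 44 higher in the alternative fits that kept all 59.

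Of the 5 other genes of the Rel and IκB families, 3 had a positive and 2 a negative log2 fold change. REL, the remaining subunit gene, was at 4.87 to 7.78 normalized CPM in the control and 7.60 to 10.2 in the knockdown, a log2 fold change of -0.48 (SE 0.27, adjusted p = 0.367, edgeR) with overlapping groups. NFKBIZ and BCL3 encode atypical IκB proteins that act in the nucleus, and both were higher in the control without overlap. NFKBIZ was at 6.36, 6.58 and 21.3 in the control and 3.29 to 3.81 in the knockdown, with a log2 fold change of 1.66 (SE 0.48, adjusted p = 0.140, edgeR) that became 0.84 without control replicate 3. BCL3, at 21.5, 17.2 and 6.98 against 4.75 to 6.80, had the other order of control libraries, with 1.36 (SE 0.39, adjusted p = 0.140, edgeR). DESeq2 called both (adjusted p = 0.0153 for NFKBIZ and 0.0194 for BCL3), as did edgeR with no filter (0.0081 and 0.0134), and edgeR called BCL3 without control replicate 3 (adjusted p = 0.00643). With the FPKM reads of control replicate 2, NFKBIZ had 2.19 and BCL3 had 1.05. NFKBIB and NFKBID, with -0.092 (SE 0.18) and 0.20 (SE 0.25), overlapped between the groups and are given to complete the list. Leaving out each library in turn gave -0.25 to -0.014 for NFKBIB and 0.039 to 0.35 for NFKBID. The IKK genes CHUK, IKBKB and IKBKG had log2 fold changes of -0.13, 0.17 and 0.23, each with overlapping groups. With each library left out in turn, the values ran from -0.20 to -0.067 for CHUK, from 0.10 to 0.25 for IKBKB and from 0.038 (without knockdown replicate 3) to 0.41 (without knockdown replicate 2) for IKBKG.

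Of 10 ligand genes, 8 had too few counts to be tested, TNF, IL1A and IL1B among them. TNFSF12 was at 2.40 to 3.46 in the control and 0.990 to 1.78 in the knockdown (log2 fold change 1.19, SE 0.37, adjusted p = 0.152, edgeR), while LTB had -0.75 (SE 0.55), a sign that turned without knockdown replicate 3. Of 11 receptor genes, 6 were tested, and 6 had a positive log2 fold change over the 6 libraries. LTBR, at 0.0028, turned negative with RLE size factors, DESeq2, no filter or the replicate number as a block, and without control replicate 3 or knockdown replicate 3, and TNFRSF1B (0.19) with the FPKM reads of control replicate 2 (-0.065). Both are named here after their values had been seen. TLR3 had the largest value, 1.35 (SE 0.36, adjusted p = 0.127, edgeR) and no overlap between groups, and was called by DESeq2 (adjusted p = 0.0262). IL1RAP, the coreceptor of the interleukin-1 receptor, had 0.92 (SE 0.33) with overlapping groups and 0.58 with the FPKM reads of control replicate 2, was called without control replicate 3 (1.16, adjusted p = 0.0274, edgeR), and IL1R1 itself was not tested for low counts.

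Of 26 other target genes, 16 were tested, and all 16 had a positive log2 fold change, where 53.4% of all genes did. This held under the other scalings and without knockdown replicate 3. With at least 10 counts required in every library, 15 were tested and 15 had a positive value. A negative value was found for 4 of the 16 without control replicate 3, for 2 without knockdown replicate 1 or 2, and for 1 without control replicate 1 or 2 or with the FPKM reads of control replicate 2. An unadjusted p under 0.05 was reached in 5 of the 16, against 10.4% of all genes that reached it and were higher in the control. In 5 the groups did not overlap, against 12.4% of all genes that were higher in the control without overlap. PLAU, the urokinase gene, was at 47.9, 32.5 and 23.1 normalized CPM in the control and 8.85 to 12.6 in the knockdown, a log2 fold change of 1.67 (SE 0.28, adjusted p = 0.111, edgeR). PLAU was called by DESeq2 (adjusted p = 2.7e-05), by edgeR with no filter (adjusted p = 6.8e-05) and by edgeR without control replicate 3 (adjusted p = 0.00506). CXCL2 was highest on the log2 fold change scale, with 1.82 (SE 0.63, adjusted p = 0.180, edgeR), on at most 5.19 normalized CPM. It had 23 to 81 counts in the control and 5 to 20 in the knockdown. It was not tested where at least 10 counts were required in every library. Its value was 1.03 without control replicate 3 and 2.44 with the FPKM reads of control replicate 2, and it was called with no filter (adjusted p = 0.0481, edgeR). Of 8 tested brakes of the pathway, ZC3H12A, an RNase that degrades inflammatory mRNAs, had 0.65 (SE 0.23, adjusted p = 0.189, edgeR) without overlap, or 0.42 without knockdown replicate 3. OTUD7B had -0.50 (SE 0.23) with overlap, and -0.32 without control replicate 3 and -0.33 without knockdown replicate 3.

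**Figure D5:**
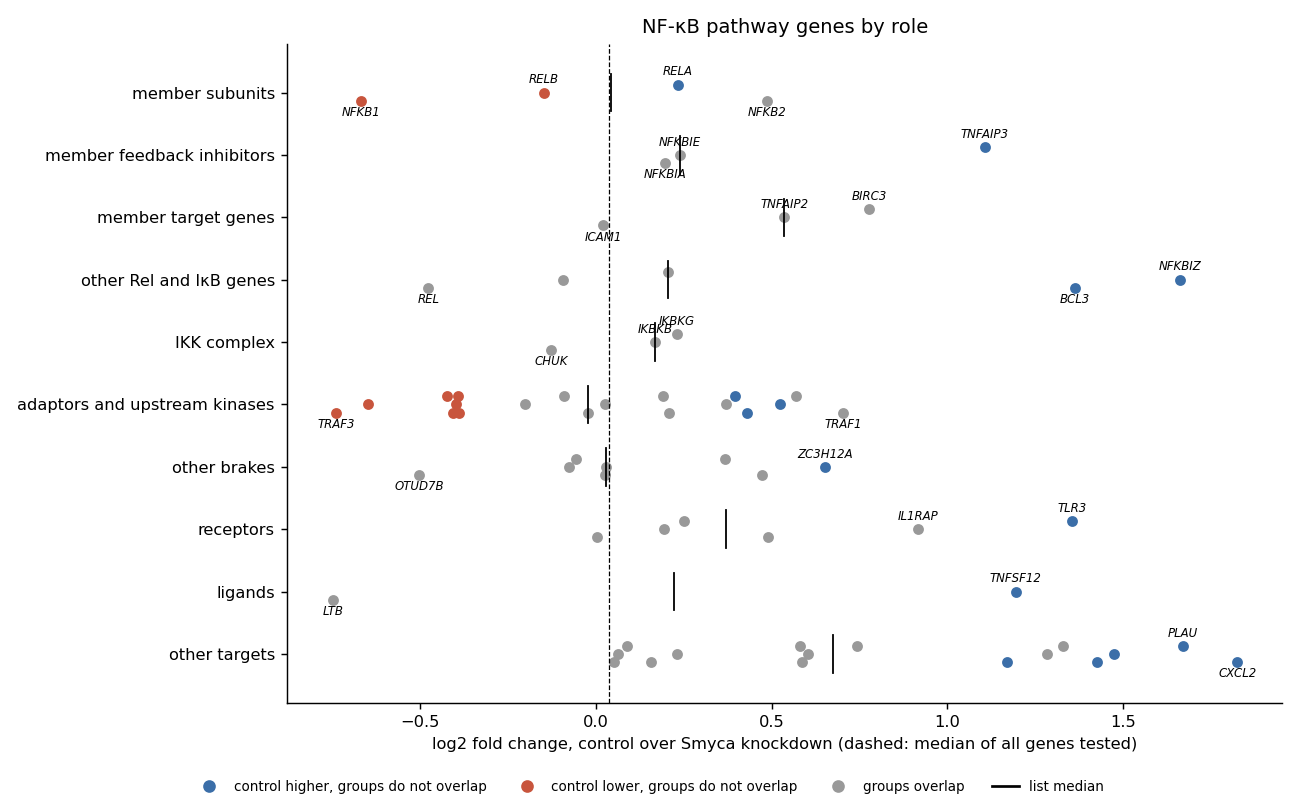
Log2 fold change, control over Smyca knockdown (x axis), of each tested gene of the pathway by role (rows), coloured by whether the groups overlapped, with the median of each list as a black line and that of all genes (0.036) as a dashed line. The member subunits lie on both sides of 0, and all 16 tested other targets lie to the right of it, of which 4 crossed to the left without control replicate 3.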

How the data were processed

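For each of the 6 libraries, rRNA was depleted and a strand-specific library was sequenced from both ends. The authors aligned the reads to hg38 (TopHat2 2.0.12 in the submitters' processing notes), ran HTSeq and deposited raw counts and FPKM values of 58302 Ensembl genes. Annotation release and strand setting are not given in the sources used here, so reads of a member and of a gene on its opposite strand cannot be told apart. GENCODE release 44 gave symbols for 57532 identifiers, and the locations.

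Counts were tested in R 4.3.3 with edgeR 4.0.16 (TMM, filterByExpr, quasi-likelihood test, Benjamini-Hochberg adjustment over 15075 genes) and, as an alternative, DESeq2 1.42.0. Levels per kilobase also used the union of GENCODE exons, an alternative chosen after seeing the data. The FPKM values gave gene lengths and the whole reads of control replicate 2. The code was tested on simulated data. Of 200 genes simulated with a log2 fold change of 1, 18.5% were called, with 5 false calls. Of 200 with a log2 fold change of 2, 82% were called, with 15 false calls. A gene left uncalled is thus not shown to be unchanged. The members, gene lists, tests and alternatives were chosen with earlier results of these data known. Named were the members, REL, the IKK genes, the 2 genes of each list with the largest absolute log2 fold change, and the 5 nearest profiles. Low counts limit BIRC3 and ICAM1 most.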

Additional observations from a re-analysis of the deposited data

Results flagged for a closer look

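The FPKM column of control replicate 2 held values that its count column did not, and 3357 genes with 0 counts in this library had an FPKM above 0. In the other 5 libraries there were 0 such genes. Read back as whole reads (within 0.05 of a whole number), this column gave NFKBIA 65.4 CPM in place of the 23.2 CPM of the counts, where the counts of control replicate 3 gave 59.2. For TNFAIP3 it gave 27.9 CPM in place of 16.1, where control replicate 3 had 29.5. For TNFAIP2 the values were 9.49 and 20.7, with 11.2 in control replicate 3. These CPM are scaled by library totals alone, and which column belongs to the library was not tested.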

How the results depend on the processing

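Of the 10 genes, 1 was called with no filter beyond 1 count, 2 with DESeq2 and 0 to 2 with one library left out, and 3 had an unadjusted p under 0.05. Of the pathway genes, 9 of 72 tested were called with no filter, 9 of 59 with DESeq2, 1 of 59 with the FPKM reads of control replicate 2 and 0 to 11 with one library left out (11 of 60 without control replicate 3). Of all genes, 8 of 15075 were called with library totals alone and 916 of 30409 (3.01%) with no filter. DESeq2 called 836 of 15075 (5.55%), and 10 of 15190 (0.0658%) were called with the FPKM reads. With one library left out, 0 to 1628 were called, the latter of 15449 (10.5%) without control replicate 3. The number was 0 without control replicate 1, knockdown replicate 1 or knockdown replicate 2. The cause was not tested. The log2 fold change of NFKB1 was -0.68 with DESeq2, and that of TNFAIP3 was 1.07 with no filter and 1.09 with DESeq2, each called. With one library left out, it ran from -0.86 to -0.50 for NFKB1, 0.32 to 0.67 for NFKB2, -0.41 to 0.42 for NFKBIA, -0.24 to 0.25 for ICAM1 and -1.03 to 0.0059 for LTB. ICAM1 was at -0.013 with no filter. RELA, RELB, NFKBIE, BIRC3 and TNFAIP2 kept their direction and stayed uncalled in each alternative.

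With the replicate number as a block, 0 genes were called and 2568 had an unadjusted p under 0.05, and the 10 genes kept their signs. The deviations of same-numbered libraries from the group means correlated at 0.080, 0.074 and -0.089, so the numbers were not taken as pairs. Library totals alone moved the median of all genes to 0.11, and no sign among the 10 genes turned with it.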

Other observations

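Adaptors and upstream kinases, with 19 of the 59 tested pathway genes the longest list tested, had 9 genes higher and 10 lower in the control, and 11 higher and 8 lower without control replicate 3. Of the 19, 7 were lower without overlap, against 12.5% of all genes tested. Another 3 were higher without overlap, against 12.4% of all genes tested. TRAF3, which holds back the NIK branch, was at 46.6, 54.8 and 55.4 normalized CPM in the control and 88.4, 82.4 and 90.7 in the knockdown, a log2 fold change of -0.74 (SE 0.14, adjusted p = 0.111, edgeR) that lay between -0.79 and -0.66 with each library left out. DESeq2 called it (adjusted p = 9.87e-04), as did edgeR with no filter (0.0114) and without control replicate 3 (0.0189). The following genes were chosen after their values had been seen. TRAF2, its partner in the receptor complex, was at 44.4, 44.9 and 41.2 in the control and 69.4, 74.2 and 60.7 in the knockdown. Its log2 fold change was -0.65 (SE 0.14, adjusted p = 0.111, edgeR). Over all fits, edgeR or DESeq2, that value ran from -0.73 to -0.58 and the adjusted p from 0.0068 to 0.44. MAP3K14, which encodes NIK itself, went the other way, at 30.2, 24.0 and 29.1 against 18.5, 20.1 and 19.4, with a log2 fold change of 0.52 (SE 0.16, adjusted p = 0.152, edgeR). IRAK1, a kinase of the interleukin-1 and Toll-like receptor branch, was at 483 to 531 in the control and 625 to 734 in the knockdown. Its log2 fold change was -0.42 (SE 0.14, adjusted p = 0.166, edgeR). Other genes of this branch went both ways, with -0.40 (SE 0.18) for MYD88, 0.43 (SE 0.17) for TRAF6 and 0.37 (SE 0.20) for IRAK4. TRAF1, itself a target gene, had a log2 fold change of 0.70 (SE 0.36, adjusted p = 0.320, edgeR) with overlapping groups.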
